A study of Mus musculus with 18 samples.

Results

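Epithelial cells of the colon carry receptors that detect microbial molecules, and 10 genes of this system were followed here: the Toll-like receptors Tlr2, Tlr3, Tlr4, Tlr5 and Tlr9, the cytosolic receptors Nod1, Nod2 and Nlrp6, and the adaptors Myd88 and Ticam1. They were picked by gene symbol from a table of read counts for 24047 genes, and all 10 were in it. The RNA-Seq libraries came from colon crypt epithelial cells of 18 C57BL/6 mice in 6 groups of 3, released from the tissue with EDTA and collected as intact crypts on a strainer. Germ-free (GF) mice carried no microbes, COLONIZED mice were germ-free mice given the cecal contents of WT donors with a normal microbiota and studied 14 days later, and CONV mice were raised with a conventional specific pathogen-free microbiota. Each state had mice with the genotype labels WT and Ern2-/-, the latter carrying a whole-body deletion of Ern2, which encodes the endoplasmic reticulum stress sensor ERN2 (IRE1β). Age and sex of the mice were not given in the labels.

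Toll-like receptors sit in membranes and recognize conserved microbial products. TLR2 binds bacterial lipoproteins, TLR4 binds lipopolysaccharide and TLR5 binds flagellin, whereas TLR3 and TLR9 lie in endosomes and bind double-stranded RNA and unmethylated CpG DNA. NOD1 and NOD2 recognize fragments of bacterial peptidoglycan in the cytosol, and NLRP6 is a NOD-like receptor of the intestinal epithelium that can assemble inflammasomes and has been linked to goblet cell mucus secretion. MYD88 carries the signal of most Toll-like receptors towards NF-κB, and TICAM1 (TRIF) carries that of TLR3 and part of that of TLR4. In the gut this system is known for sensing the microbiota at the epithelial surface.

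Facts of the libraries bear on how the values can be read. Depth lay between 5.87 and 23.2 (total counts, in units of 1e6), and the 3 shallowest libraries were from CONV mice. Reads were assigned to Ern2 in every library, and among libraries with the Ern2-/- label its normalized counts ran from 386 to 3336. Replicates 1 and 3 of GF-Ern2-/- held 2877 and 3336 and replicate 1 of COLONIZED-Ern2-/- held 2567, which lay within or above the values of the WT libraries of the same state. Whole-gene counts do not show which exons the reads came from, so the label was not checked by them, and genotype below means the label. Sex was not balanced: Y-linked genes were expressed in 0 GF-WT, 1 CONV-WT and 2 COLONIZED-WT libraries and, with the Ern2-/- label, in 2 from GF, 2 from COLONIZED and 3 from CONV mice, each out of 3. The epithelial marker Epcam was abundant throughout (8948 to 34787 normalized counts), and the summed level of 15 immune markers came to between 0.302% and 2.17% of that of 8 epithelial markers. The immune sum was highest in COLONIZED-WT replicate 2, at 3240, where Cd74 supplied 2458. In bulk libraries, fewer cells of a type and less RNA per cell cannot be told apart.

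Nod2 was the sensor whose level changed most with microbes, so its promoter is shown together with those of Nod1, its closest relative among the members, and Nlrp6, the most abundant sensor. Each run is 5′ to 3′ on the gene's strand, from 250 bases before to 50 bases after the RefSeq start on GRCm38.p6, and capitals mark the letters GGGCGG on either strand (CCGCCC when the match is on the opposite strand), the core of a GC box.

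Nod2 chr8:88647097-88647396, plus strand: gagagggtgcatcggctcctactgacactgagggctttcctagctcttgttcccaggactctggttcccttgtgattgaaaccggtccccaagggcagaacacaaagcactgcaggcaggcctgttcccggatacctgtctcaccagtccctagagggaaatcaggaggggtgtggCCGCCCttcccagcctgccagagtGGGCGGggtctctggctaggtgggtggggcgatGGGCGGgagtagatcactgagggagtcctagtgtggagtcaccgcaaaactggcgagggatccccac
Nod1 chr6:54972563-54972862, minus strand: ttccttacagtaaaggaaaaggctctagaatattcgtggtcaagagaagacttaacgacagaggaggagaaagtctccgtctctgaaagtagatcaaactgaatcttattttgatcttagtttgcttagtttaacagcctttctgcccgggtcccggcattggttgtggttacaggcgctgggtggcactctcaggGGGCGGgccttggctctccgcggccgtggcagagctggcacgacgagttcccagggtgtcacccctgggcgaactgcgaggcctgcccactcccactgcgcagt
Nlrp6 chr7:140920652-140920951, plus strand: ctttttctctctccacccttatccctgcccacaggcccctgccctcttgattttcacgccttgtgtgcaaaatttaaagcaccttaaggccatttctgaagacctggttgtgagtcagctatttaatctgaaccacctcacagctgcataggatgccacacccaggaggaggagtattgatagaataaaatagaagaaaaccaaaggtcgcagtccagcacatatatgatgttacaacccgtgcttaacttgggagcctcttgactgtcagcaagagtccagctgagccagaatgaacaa

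The Nod2 window held 3 such matches, the window at this Nod1 start held 1, that at the other Nod1 start held 0, and that of Nlrp6 held 0. RefSeq promoters were found for 9 of the 10 members, with 2 starts for Nod1, and 7 of these 10 windows held GGGCGG on either strand, against 35.7% of 32851 mouse promoters. The NF-κB-like pattern GGGNNNNNCC on either strand was in 6 of the 10, against 50.8% of all, with 1 match in the Nod2 window, 3 in the Nod1 window shown and 0 in those of the other Nod1 start and Nlrp6. These are matches of letters only.

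By GENCODE annotation of GRCm38, Nod2 lies on chromosome 8 from 88647315 to 88688474, Nod1 on chromosome 6 from 54923949 to 54972612 and Nlrp6 on chromosome 7 from 140920902 to 140929192. Tlr2 lies on chromosome 3 from 83836272 to 83841767, Tlr3 on chromosome 8 from 45395665 to 45411080, Tlr4 on chromosome 4 from 66827584 to 66930284, Tlr5 on chromosome 1 from 182954788 to 182976044 and Tlr9 on chromosome 9 from 106222598 to 106226883. Myd88 lies on chromosome 9 from 119335934 to 119341411 and Ticam1 on chromosome 17 from 56269319 to 56276786. All 10 are protein coding. Tlr3 shares 7.32% of its exonic bases with the antisense gene Gm45542, and Myd88 shares 11.3% with Acaa1a on the other strand. The strand setting of the counting is not given in the sources used here, so part of the reads of these genes may belong to the partner.

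Levels between genes were compared as normalized counts per kb of exon, that is, counts divided by a size factor for library depth and by the summed exon length. Nlrp6 stood first in each of the 18 libraries, with a mean of 1173 ± 251 (SD, n = 18). The adaptors followed, Ticam1 at 295 ± 64.1 and Myd88 at 272 ± 32.3, and their ranges overlapped. Tlr2 came next at 158 ± 56.2, then Tlr3 at 109 ± 35.6, Nod1 at 76.7 ± 23.6, Tlr4 at 51.4 ± 18.2, Tlr5 at 31.3 ± 15.7 and Nod2 at 19.4 ± 10.1 per kb. From Ticam1 down to Nod2, each gene in this order overlapped its neighbour: Tlr2 ranked between 3 and 6 over the libraries, Tlr3 between 4 and 6, Nod1 between 4 and 7, Tlr4 and Tlr5 between 6 and 9, and Nod2 between 7 and 9. Only Nlrp6 at the top and Tlr9 at the bottom kept 1 rank throughout. Among the other 9 members, variation between libraries was widest for Nod2 (coefficient of variation 52.1%) and Tlr5 (50.2%) and narrowest for Myd88 (11.9%).

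**Figure D1:**
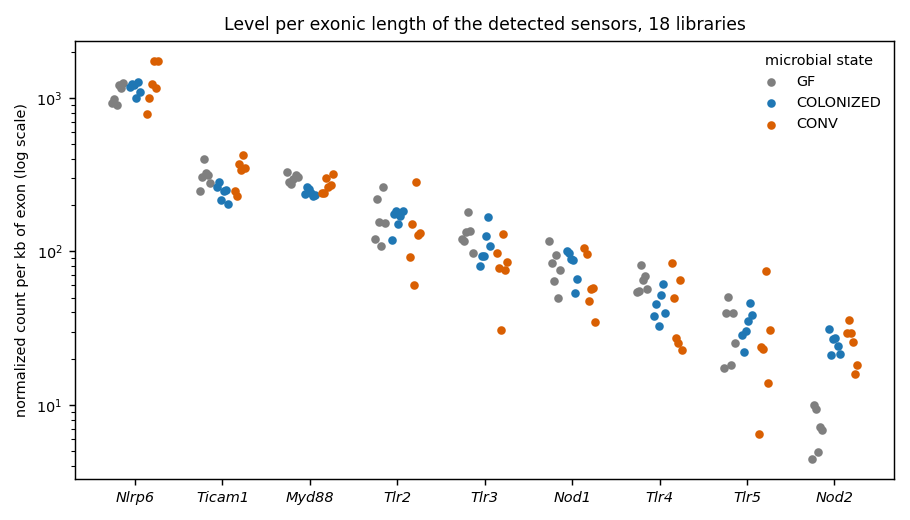
Normalized counts per kb of exon (log axis) for the 9 members with appreciable counts, each point 1 of 18 libraries, coloured by microbial state. Nlrp6 lies above every other member in all libraries, and the GF points of Nod2 lie apart from its COLONIZED and CONV points.

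Tlr9, the endosomal receptor for CpG DNA, was close to undetected. It had 1 read in COLONIZED-WT replicate 2, 1 read in COLONIZED-Ern2-/- replicate 1 and 0 reads in every other library, 2 reads in all. A count of 0 allows up to 3 counts by counting error, so no difference between groups was detectable at this depth. Tlr9 was therefore outside the tests of each pair of groups, which covered the other 9 members.

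Nod2 was between 3.20-fold and 3.95-fold higher in each group with microbes than in the GF group of the same genotype label. Its normalized counts in replicates 1, 2 and 3 were 22.3, 49.7 and 47.2 for GF-WT, compared with 157, 107 and 135 for COLONIZED-WT and with 148, 179 and 148 for CONV-WT. Among libraries labelled Ern2-/-, they were 24.6, 36.1 and 34.4 for GF, compared with 136, 121 and 107 for COLONIZED and with 129, 80.0 and 91.1 for CONV mice. The 6 GF libraries were all below the 12 libraries with microbes, with no overlap. Of 10852 genes with a mean of 50 or more normalized counts, 244 (2.25%) were likewise above GF without overlap. Raw counts were modest, between 29 and 71 per GF library and between 33 and 220 in the others.

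The DESeq2 Wald test called Nod2 in each of these contrasts, where a call is a p under 0.01 after Benjamini-Hochberg adjustment over all genes tested. In CONV-WT against GF-WT it rose by 1.98 on the log2 scale (3.95-fold, SE 0.36, adjusted p = 2.41e-06), and it was the 1 member called of 9 tested, where 11.0% of all genes were called. In COLONIZED-WT against GF-WT the rise was 1.74 (3.35-fold, SE 0.33, adjusted p = 3.84e-06). In the libraries labelled Ern2-/- it was 1.68 for CONV against GF (SE 0.41, adjusted p = 0.00149) and 1.95 for COLONIZED against GF (SE 0.32, adjusted p = 1.41e-07). Nod2 was the only member called in either Ern2-/- contrast, where 4.10% and 7.65% of all genes were called.

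The rise of Nod2 did not differ detectably between the genotype labels. The interaction, the log2 change in Ern2-/- minus that in WT, was -0.30 for CONV (95% interval -1.26 to 0.66, adjusted p = 0.937) and 0.21 for COLONIZED (-0.66 to 1.07, adjusted p = 0.998) by DESeq2. Over both genotypes, with genotype as a term, Nod2 rose by 1.84 after colonization (95% interval 1.43 to 2.26, adjusted p = 3.08e-16) and by 1.85 in CONV mice (1.39 to 2.31, adjusted p = 8.03e-13). CONV and COLONIZED mice were not told apart: the log2 difference was 0.25 in WT (-0.21 to 0.71) and -0.25 in Ern2-/- (-0.83 to 0.34).

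Support for Nod2 varied with the tool and the libraries. The quasi-likelihood test of edgeR called Nod2 over both genotypes, with adjusted p = 8.12e-05 for COLONIZED and 5.59e-04 for CONV, but in the 4 single pairs its adjusted p was between 0.0112 and 0.0517 and it called 0 members. In those pairs edgeR called 0.175% (CONV-WT), 4.94% (COLONIZED-WT), 0.0325% (CONV-Ern2-/-) and 0.216% (COLONIZED-Ern2-/-) of all genes. With sex as a covariate the COLONIZED-WT rise was 1.43 (DESeq2 adjusted p = 0.0832) and the CONV-Ern2-/- rise was 1.75 (0.0103), neither called. The CONV-Ern2-/- call was also lost without GF-Ern2-/- replicate 1 (adjusted p = 0.0371), CONV-Ern2-/- replicate 1 (0.0267) or CONV-Ern2-/- replicate 3 (0.0114). It was lost as well with the replicate number as a block.

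Marker genes of other cells were read over the same groups. The summed level of 5 tuft cell markers was 825 to 1726 in GF, 1739 to 3528 in COLONIZED and 1213 to 3900 in CONV libraries, and 4 of the 5 passed the test upward in each of the fits over both genotypes. The immune sum was 747 to 916 in GF, 638 to 3240 in COLONIZED and 515 to 999.5 in CONV libraries. Of the 15 immune markers, the neutrophil genes S100a8 and S100a9 had 0 counts in all 18 libraries, whereas the leukocyte gene Ptprc was at 39.2 to 256, Cd74 at 20.1 to 2458, Itgam at 20.0 to 89.9 and Cd68 at 3.01 to 43.9 normalized counts. The sum of 5 enteroendocrine markers was 979 to 3200 in GF, 2370 to 7063 in COLONIZED and 1757 to 2503 in CONV libraries. Over both genotypes 5 of 5 enteroendocrine markers were called higher after colonization, and in CONV mice 1 was called higher and 1 lower of 4 tested. Of 10 immune markers tested 1 was called higher and 0 lower in each of these fits, and in both WT contrasts with GF 0 immune and 0 enteroendocrine markers were called. In those WT contrasts 5 of 8 colonocyte markers were called lower in CONV-WT and 4 in COLONIZED-WT, and 0 higher. Of 8 goblet markers 1 was called higher and 2 lower in CONV-WT, and 3 higher and 2 lower in COLONIZED-WT. Without COLONIZED-WT replicate 2, which had the highest immune sum, the COLONIZED rise of Nod2 over both genotypes was 1.92. The sum of 6 stem markers was 3003 to 3842 in GF-WT, 4368 to 5276 in COLONIZED-WT and 2885 to 5728 in CONV-WT libraries. With the Ern2-/- label it was 2303 to 3941 in GF, 3134 to 3535 in COLONIZED and 2228 to 3259 in CONV libraries. Of these 6 markers 1 was called higher and 0 lower in COLONIZED-WT and after colonization over both genotypes. The part of tuft, immune, enteroendocrine, colonocyte, goblet or stem cells in the Nod2 result was not tested.

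**Figure D2:**
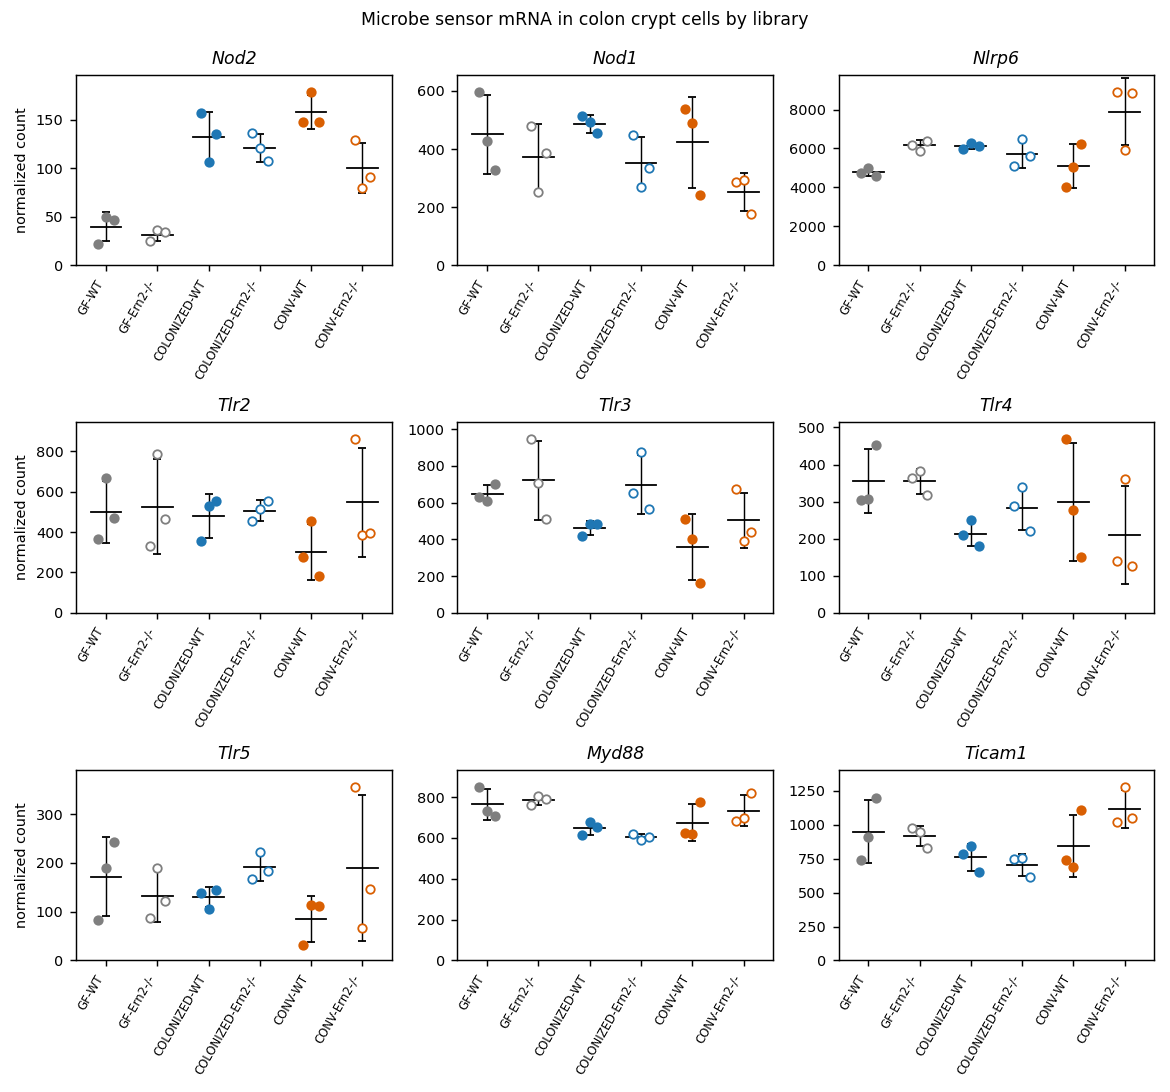
Normalized counts (linear axis from 0) of 9 members in each library, by group, with filled points for WT, open points for libraries labelled Ern2-/-, a line for the group mean and a bar for 1 SD (n = 3). Nod2 is lower in all 6 GF libraries than in the other 12, Myd88 is lower in COLONIZED than in GF libraries, and Tlr2, Tlr4 and Tlr5 spread widely within CONV groups.

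Nod1, the partner of Nod2 in peptidoglycan sensing, was not called in any contrast with GF. Its normalized counts were 597, 429 and 328 for GF-WT, compared with 514, 494 and 454 for COLONIZED-WT and with 537, 489.9 and 243 for CONV-WT. Those with the Ern2-/- label were 478, 251 and 387 for GF, compared with 449, 271 and 335 for COLONIZED and with 287, 293 and 177 for CONV mice. All states overlapped within each genotype label. The log2 change over both genotypes was 0.02 for COLONIZED (95% interval -0.35 to 0.40) and -0.32 for CONV (-0.83 to 0.19), intervals that leave out a rise of the size seen for Nod2.

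Nlrp6 was abundant in every group, and against GF it passed the test in COLONIZED-WT alone. Its normalized counts were 4724, 4975 and 4601 for GF-WT, compared with 5985, 6273 and 6152 for COLONIZED-WT and with 4001, 5062 and 6238 for CONV-WT. Libraries labelled Ern2-/- held 6203, 5896 and 6392 for GF, compared with 5078, 6497 and 5593 for COLONIZED and with 8907, 5910.0 and 8835 for CONV mice. COLONIZED-WT lay above GF-WT without overlap, as did 23.7% of genes with a mean of 50 or more, by 0.37 on the log2 scale (1.30-fold, SE 0.10, DESeq2 adjusted p = 0.00232), and COLONIZED-Ern2-/- overlapped GF-Ern2-/- with a difference of -0.11 (adjusted p = 0.738). The interaction was -0.48 (95% interval -0.79 to -0.17, unadjusted p = 0.00258) and failed the correction (adjusted p = 0.844). Within WT the call was lost without COLONIZED-WT replicate 2 (adjusted p = 0.0137) or replicate 3 (0.0126) and with sex as a covariate (0.101).

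In the remaining contrasts Nlrp6 was not called. CONV differed from GF by 0.09 in WT (95% interval -0.34 to 0.52) and by 0.35 in Ern2-/- (-0.11 to 0.81). CONV-WT replicate 3 and the CONV-Ern2-/- libraries also had few goblet marker counts, with a sum of 8 goblet markers of 59428 to 79749 against 502249 and 582180 in the other CONV-WT libraries. Their part in the Nlrp6 values was not tested.

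The cell surface receptors gave no change with microbes that held in both genotype labels. Tlr4, the lipopolysaccharide receptor, had 304, 306 and 454 normalized counts for GF-WT, compared with 210.4, 250.5 and 181 for COLONIZED-WT and with 468, 278 and 152 for CONV-WT. The libraries labelled Ern2-/- held 362, 383 and 318 for GF, compared with 289, 339 and 222 for COLONIZED and with 139.9, 362 and 127 for CONV mice. COLONIZED-WT lay below GF-WT without overlap, as did 26.3% of genes with a mean of 50 or more, whereas CONV-WT spanned the GF-WT range, and in CONV-Ern2-/- 2 of 3 libraries lay below all of GF-Ern2-/- and 1 within its range. Tlr4 fell by 0.72 on the log2 scale in COLONIZED-WT (SE 0.23, DESeq2 adjusted p = 0.00862) and differed by -0.33 in COLONIZED-Ern2-/- (adjusted p = 0.396). The interaction was 0.40 (95% interval -0.23 to 1.03, adjusted p = 0.998).

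Over both genotypes Tlr4 fell by 0.52 after colonization (SE 0.16, adjusted p = 0.00630), and edgeR gave adjusted p = 0.0195. That call was lost without GF-Ern2-/- replicate 2 (adjusted p = 0.0109) and with sex as a covariate (0.0169). The WT call was lost in 4 of the 6 fits that left out 1 library, namely without GF-WT replicate 2 (0.0145) or 3 (0.0521) or COLONIZED-WT replicate 1 (0.0571) or 3 (0.0752). In CONV-Ern2-/- against GF-Ern2-/- Tlr4 was called only without CONV-Ern2-/- replicate 2, the CONV-Ern2-/- library with the highest Tlr4 (adjusted p = 1.18e-04). Sums of stromal markers, each mainly 1 gene, were lower in COLONIZED than in GF libraries. The sum of 8 mesenchymal markers was 303 to 549.6 in GF and 190 to 265 in COLONIZED libraries, and that of 4 endothelial markers was 28.4 to 59.2 and 6.02 to 23.02, both without overlap. In CONV libraries these sums were 180 to 334 and 5.93 to 95.03. Pdgfrb (median 209 over 18 libraries) and Pecam1 (28.9) made up most of them in GF and COLONIZED libraries, and the other mesenchymal and endothelial markers had medians of 4.00 or less, so the sums do not show stromal markers in general. Over both genotypes 1 of 6 mesenchymal markers and the 1 endothelial marker tested were called lower after colonization. Their part in the Tlr4 values was not tested.

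Tlr2, the lipoprotein receptor, overlapped between all states. It had 365, 666 and 469 normalized counts for GF-WT, compared with 356, 531 and 552 for COLONIZED-WT and with 275, 453 and 181 for CONV-WT. For Ern2-/- the values were 329, 787 and 464 for GF, compared with 454, 512 and 554 for COLONIZED and with 859, 387 and 397 for CONV mice. The log2 change over both genotypes was -0.05 for COLONIZED (95% interval -0.48 to 0.37) and -0.33 for CONV (-0.97 to 0.30), neither called.

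Tlr5, the flagellin receptor, varied most within groups. It had 83.0, 191 and 242 normalized counts for GF-WT, compared with 138, 106 and 145 for COLONIZED-WT and with 31.1, 114 and 111 for CONV-WT. For Ern2-/- the values were 86.5, 191 and 121 for GF, compared with 168, 222 and 184 for COLONIZED and with 356, 66.7 and 146 for CONV mice. The highest and the lowest of the 18 values both came from CONV libraries, and the states overlapped. The log2 change over both genotypes was 0.06 for COLONIZED (95% interval -0.49 to 0.61) and -0.25 for CONV (-1.17 to 0.68).

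Tlr3, the receptor for double-stranded RNA, had lower values in the WT libraries with microbes. Its normalized counts were 631, 609 and 702 for GF-WT, compared with 419, 486 and 487 for COLONIZED-WT and with 509, 405 and 161 for CONV-WT. For Ern2-/- they were 945, 708 and 511 for GF, compared with 654, 879 and 564 for COLONIZED and with 677, 393 and 441 for CONV mice. COLONIZED-WT and CONV-WT each lay below GF-WT without overlap, and in Ern2-/- the states overlapped. Of genes with a mean of 50 or more, 26.3% lay below GF-WT without overlap in COLONIZED-WT and 19.5% in CONV-WT. Tlr3 fell by 0.47 on the log2 scale in COLONIZED-WT (SE 0.15, DESeq2 adjusted p = 0.00687), a call that was lost in each of the 6 fits without 1 library (adjusted p between 0.0107 and 0.0438). In CONV-WT the difference of -0.86 (95% interval -1.68 to -0.04) was not called. Of 8 colonocyte markers 4 were called lower in COLONIZED-WT and 5 in CONV-WT against GF-WT, and 0 higher in either. The sum of these markers overlapped between the groups. Their part in the Tlr3 and Tlr4 values was not tested.

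The interaction for Tlr3 was 0.43 for COLONIZED (95% interval -0.21 to 1.07) and 0.33 for CONV (-0.74 to 1.40), so a difference between genotype labels was not shown. Over both genotypes the CONV difference was -0.68 (adjusted p = 0.0430), but -0.95 with a covariate for sex (adjusted p = 0.00284). CONV-WT replicate 3, the lowest Tlr3 value of all, was also the shallowest CONV-WT library, with 8.20 in units of 1e6 counts.

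Of the adaptors, Myd88 was the steadiest gene of the group and was slightly lower after colonization. Its normalized counts were 849.6, 732 and 709 for GF-WT, compared with 613, 676 and 655 for COLONIZED-WT and with 622, 620.3 and 778 for CONV-WT. For Ern2-/- they were 759, 806 and 791 for GF, compared with 619, 591 and 604 for COLONIZED and with 682, 695 and 819 for CONV mice. All 6 COLONIZED libraries were below all 6 GF libraries, as were 9.57% of genes with a mean of 50 or more, and the CONV libraries overlapped both. Over both genotypes Myd88 fell by 0.30 on the log2 scale (0.813 of the GF level, SE 0.078, DESeq2 adjusted p = 7.25e-04, edgeR 0.00734). It was not called in either genotype alone, where the differences were -0.23 and -0.38, or in CONV mice, at -0.15. The marker sums given beside Tlr4, mostly Pdgfrb and Pecam1, separated COLONIZED from GF libraries in the same direction, and their part in the Myd88 difference was not tested.

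Ticam1, the TRIF adaptor, differed between colonized and conventional mice of the Ern2-/- label. Its normalized counts were 739.8, 912 and 1197 for GF-WT, compared with 784, 848 and 650.1 for COLONIZED-WT and with 737, 690.4 and 1110.3 for CONV-WT. For Ern2-/- they were 973, 949 and 832 for GF, compared with 746, 755 and 612 for COLONIZED and with 1022, 1279.8 and 1054 for CONV mice, with no overlap between the 3 states. Of genes with a mean of 50 or more, 18.8% were likewise higher in CONV-Ern2-/- than in COLONIZED-Ern2-/-, 11.0% higher in CONV-Ern2-/- than in GF-Ern2-/- and 18.6% lower in COLONIZED-Ern2-/- than in GF-Ern2-/-. CONV-Ern2-/- exceeded COLONIZED-Ern2-/- by 0.67 (1.59-fold, SE 0.19, adjusted p = 0.00488 by DESeq2 and 0.0354 by edgeR), and it was the 1 member called there, where 8.59% of all genes were called by DESeq2 and 0.282% by edgeR. The call held in 1 of the 6 fits that left out 1 library, that without CONV-Ern2-/- replicate 1, and was lost without any of the others (adjusted p between 0.0181 and 0.0673). In WT the same contrast gave 0.15 (95% interval -0.37 to 0.66). Over both genotypes Ticam1 differed by -0.35 after colonization, which missed the threshold (adjusted p = 0.0288). The sum of 8 colonocyte markers was 297049 to 411902 in CONV-Ern2-/- and 96309 to 171360 in COLONIZED-Ern2-/- libraries. Car1 weighed most in it, with a median of 91893 over the 18 libraries, against 13220 or less for each other colonocyte marker. The sum of 8 goblet markers was 59428 to 79749 in CONV-Ern2-/- and 153744 to 295189 in COLONIZED-Ern2-/- libraries. Their part in the Ticam1 difference was not tested.

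Counted over the members, 4 of 9 were called in COLONIZED-WT against GF-WT (Nod2 and Nlrp6 higher, Tlr3 and Tlr4 lower), where 17.8% of all genes were called. Over both genotypes 3 of 9 were called after colonization (Nod2 higher, Myd88 and Tlr4 lower), where 26.0% of all genes were called, and 1 of 9 in CONV mice, Nod2, where 15.4% were. The median log2 change of the 9 members was -0.05 after colonization and -0.25 in CONV mice, beside -0.01 and 0.01 over all genes tested. No member was called between CONV-WT and COLONIZED-WT by DESeq2 or edgeR, where these called 0.108% and 0% of all genes. There 0 members had an unadjusted p under 0.05, a cut at which all genes were not counted. These contrasts share GF libraries and are not independent of each other. edgeR called 2 members over both genotypes after colonization (Nod2 and Myd88), where it called 20.0% of all genes, and 1 in CONV mice (Nod2), where it called 7.27%.

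**Figure D3:**
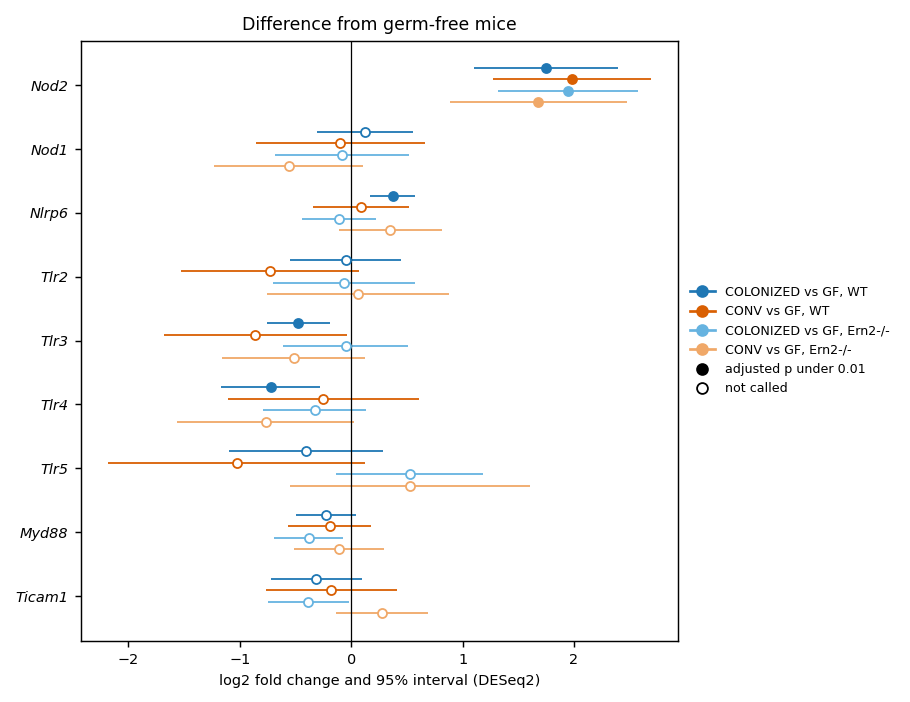
Log2 fold change with its 95% interval for 9 members in COLONIZED or CONV against GF mice, each by DESeq2 on 3 against 3 libraries, with filled points for an adjusted p under 0.01. The 4 intervals of Nod2 lie above 0, and those of the other members lie near or across 0, with Tlr3, Tlr4 and Nlrp6 called in COLONIZED-WT only.

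Comparisons of the genotype labels asked whether any sensor differed with Ern2. DESeq2 called 0 of 9 members in GF, COLONIZED or CONV mice, where 0.0349%, 1.20% and 2.87% of all genes were called. Over all 18 libraries, with state as a term, 0 of 9 were called, beside 1.70% of all genes. edgeR also called 0 members in each, beside 0% of all genes in GF and CONV mice, 0.00786% in COLONIZED mice and 0.319% over all states. By DESeq2, 1, 3 and 2 members had an unadjusted p under 0.05 in GF, COLONIZED and CONV mice, and 4 over all states. The share of all genes under that looser cut was not counted, so these counts cannot be read as many or few. Both interactions called 0 members, where 0.177% of genes were called for CONV and 0.0280% for COLONIZED by DESeq2 and 0% by edgeR.

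Differences between the genotype labels went in both directions. Nod1 had lower values in libraries labelled Ern2-/-, by -0.49 over all states (95% interval -0.85 to -0.13, DESeq2 adjusted p = 0.0976), and its COLONIZED-Ern2-/- values all lay below the COLONIZED-WT values, as did 14.2% of genes with a mean of 50 or more. It was called in COLONIZED mice without COLONIZED-Ern2-/- replicate 1, the library of that group with Ern2 in the WT range, at -0.69 (adjusted p = 0.0029), and in CONV mice without CONV-WT replicate 3 (adjusted p = 0.00483). The sum of 8 goblet markers was 295189 in that COLONIZED-Ern2-/- library, against 153744 and 158135 in replicates 2 and 3. In CONV-WT it was 78054 in replicate 3, against 582180 and 502249 in replicates 1 and 2. Between the genotype labels 2 of 8 goblet markers were called lower in COLONIZED-Ern2-/- and 5 in CONV-Ern2-/-. Their part in the Nod1 values was not tested. Nlrp6 had higher values, by 0.30 over all states (0.06 to 0.54, adjusted p = 0.146). In GF mice the 3 Ern2-/- values of Nlrp6 lay above the 3 WT values, as did 3.23% of genes with a mean of 50 or more, and the difference of 0.38 had an unadjusted p of 0.00978 and failed the correction. In CONV mice it was 0.63 (adjusted p = 0.210), which passed in a fit of all 18 libraries (0.00882).

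In COLONIZED mice the Ern2-/- values of Tlr3 and Tlr5 lay above the WT values without overlap, by 0.59 (adjusted p = 0.0466) and 0.56 (adjusted p = 0.0954), as did 17.2% of genes with a mean of 50 or more. In CONV mice the Nod2 values labelled Ern2-/- lay below the WT values, by -0.63 (adjusted p = 0.276), as did 10.9% of such genes. Myd88 differed least, by 0.02 over all states (-0.12 to 0.15).

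**Figure D4:**
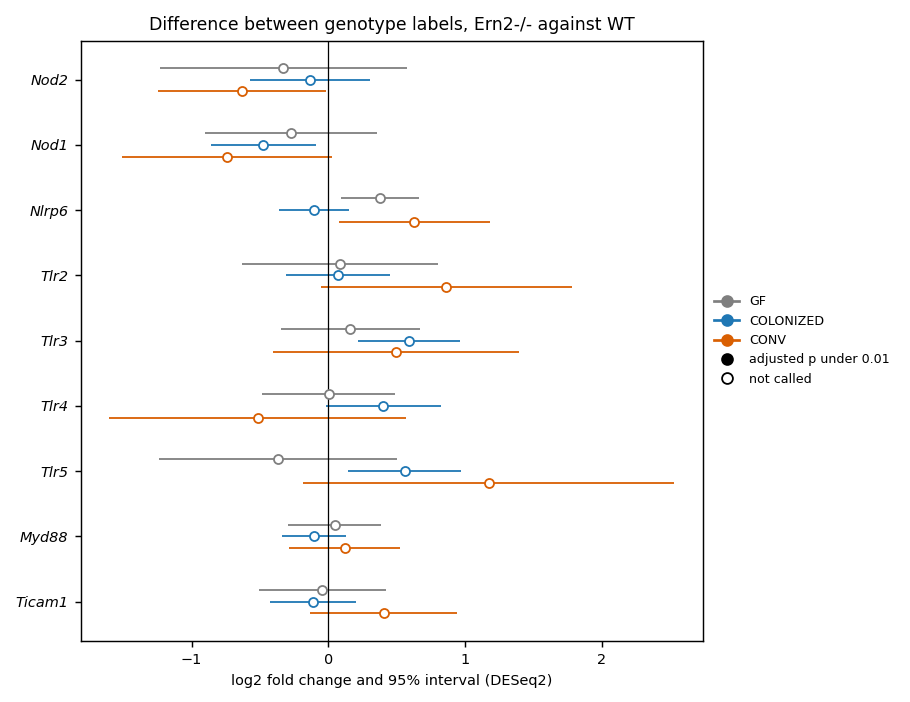
Log2 fold change with its 95% interval for 9 members between libraries labelled Ern2-/- and WT within each microbial state, by DESeq2 on 3 against 3 libraries, with open points for differences not called. None of the 27 differences was called.

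Genes whose levels ran closest to each member over the 18 libraries were listed by Pearson r of log2(normalized count + 1) among 10843 genes, as a description that depth, cell makeup and state all enter. For Nod2 these were Cd44 (r = 0.94), Impdh1 (0.94) and Rassf4 (0.94). For Nlrp6 they were Coq5, Inpp5j and Letm1, each at 0.81. Tlr5 ran with Slc46a3 (0.94), Tsku (0.88) and Hkdc1 (0.84), and Tlr4 with Prkacb, Mtmr1 and Hif1a, each at 0.86. For Tlr3 they were Clcn3 (0.96), Asah1 (0.95) and Zdhhc5 (0.95), for Tlr2 Fcgrt (0.90), Nceh1 (0.89) and Pgrmc1 (0.88), and for Nod1 Gne (0.94), St6galnac4 (0.93) and Athl1 (0.92). Myd88 ran with Ubac1 (0.90), Idh3b (0.89) and 2810459M11Rik (0.89), and Ticam1 with Myzap (0.93), Src (0.93) and Cflar (0.90). The members differed in how many genes ran close to them: 457 genes had an r over 0.8 with Tlr3 and 225 with Nod2, but 8 with Tlr4, 8 with Tlr5 and 3 with Nlrp6.

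Other genes of the same pathways were counted from 10 lists holding 129 genes, of which 128 were in the table. After colonization, over both genotypes, 14 rose (13.7%) and 20 fell (19.6%) of the 102 tested, where 13.0% and 13.0% of all genes did. In CONV mice 9 rose (8.57%) and 8 fell (7.62%) of 105, where 7.60% and 7.84% of all genes did. Between the genotype labels over all states 2 rose and 2 fell of 102, where 0.241% and 1.45% of all genes did. Counts of the lists below should be read beside these shares of all genes.

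Downstream of the receptors, several signalling genes and inhibitors were lower after colonization. Of 14 kinases and ligases of Toll-like receptor signalling 1 rose and 4 fell, among them Irak2, a kinase bound by MYD88, at -0.94 (SE 0.15, DESeq2 adjusted p = 2.89e-09). Irak3, which restrains the pathway, was the one that rose, at 0.73. Of 13 negative regulators 1 rose and 4 fell, with Tnip1 at -0.99 (adjusted p = 2.88e-13) and Tnfaip3 (A20) at -1.06 (adjusted p = 8.22e-08). Of 11 NF-κB subunits and kinases 2 rose and 3 fell, led by Ikbkg (NEMO) at -0.45 and Relb at -0.71. Of 11 NOD signalling genes tested 0 rose and 1 fell, Erbb2ip, which encodes the NOD2-binding protein Erbin, at -0.73. In CONV mice 0 of the 14 kinases and ligases and 0 of 12 NOD signalling genes tested were called. There 2 of 13 negative regulators rose and 1 fell, and 2 of 11 NF-κB subunits and kinases rose and 1 fell.

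Among the other receptors the changes went both ways. Tlr1, the partner of TLR2, fell by 0.51 after colonization (adjusted p = 1.84e-04) and by 1.01 in CONV mice (adjusted p = 3.68e-06), 1 of the 2 other Toll-like receptors tested. The chaperones of Toll-like receptor folding Hsp90b1 (gp96) and Cnpy3 rose by 0.78 and 0.37 after colonization, 2 of 9 co-receptor and trafficking genes, and 0 of 9 were called in CONV mice. Hsp90b1 is also a general chaperone of the endoplasmic reticulum. Of 9 other microbe sensors 4 rose after colonization and 0 fell, led by the short-chain fatty acid receptors Ffar3 at 1.50 and Ffar2 at 1.18 and by Tifa, the adaptor for bacterial ADP-heptose, at 0.58. Ffar3 also rose in CONV mice, by 2.06 (adjusted p = 6.37e-08). Of 8 genes of cytosolic nucleic acid sensing 1 rose and 2 fell, with Mb21d1 (cGAS) at 1.11 (adjusted p = 2.50e-11) and the RNA sensor Ifih1 (MDA5) at -0.72.

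In the inflammasome list 2 of 19 rose and 5 fell, both after colonization and in CONV mice. Nlrp10 fell by 1.88 and 2.46 in these contrasts (adjusted p = 1.19e-10 and 6.61e-15), and Nlrp1b fell by 1.09 and 1.25. Gsdmc2, a gasdermin of the intestinal epithelium, rose by 1.43 and 1.87 (adjusted p = 1.23e-05 and 6.80e-12), although it has near-identical copies between which reads may be split. Of the NF-κB target cytokines tested Tnf alone was called: it averaged 3.06 normalized counts in GF libraries and 20.5 in COLONIZED libraries, a log2 change of 2.80 (SE 0.46, adjusted p = 2.07e-08), and 22.8 in CONV libraries. In CONV mice the NF-κB regulators Nfkbiz and Nfkbia rose by 1.49 and 0.73, and Tnfaip3 fell by 0.81.

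**Figure D5:**
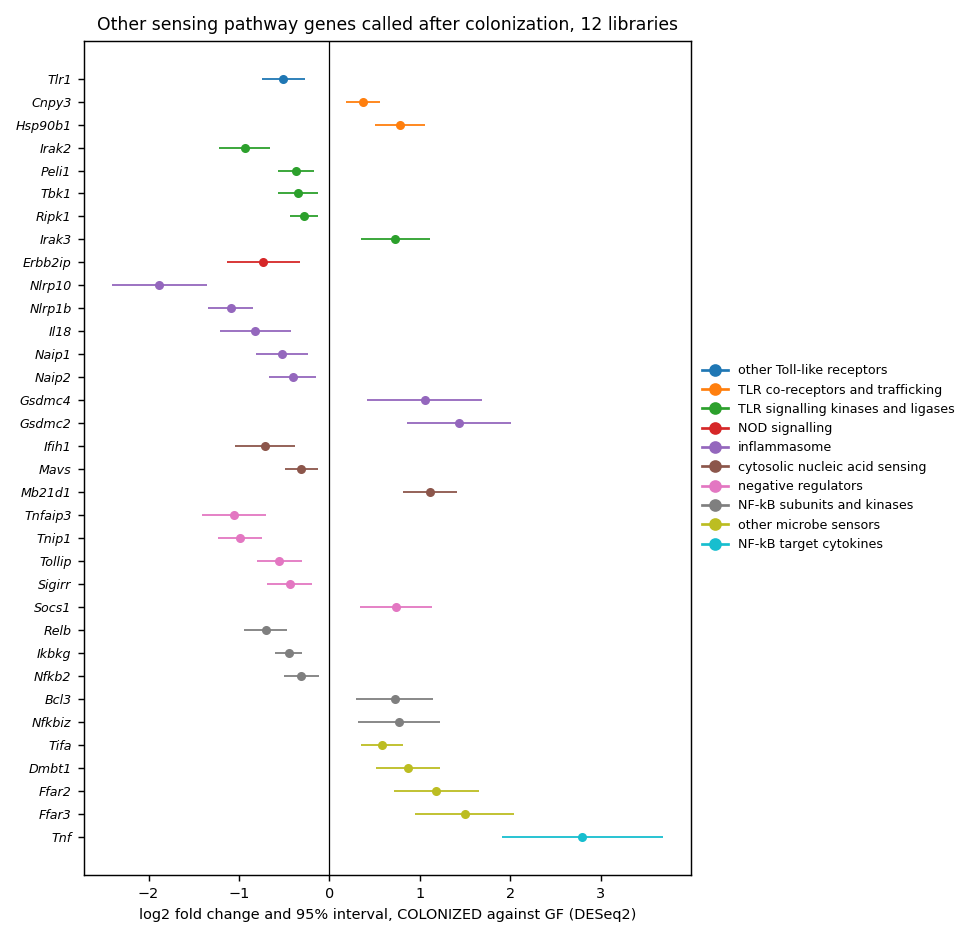
Log2 fold change with its 95% interval of the 34 pathway genes called in COLONIZED against GF mice over both genotypes (DESeq2, 12 libraries), grouped and coloured by list. Genes of the negative regulator and inflammasome lists lie mostly below 0, those of the other microbe sensors lie above 0, and Tnf has the largest rise and the widest interval.

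Between the genotype labels, the pathway genes called over all states were Naip1 at 0.66 (adjusted p = 0.00405) and Casp8 at 0.26 (adjusted p = 0.00496), both higher in libraries labelled Ern2-/-, and Ffar2 at -1.21 (adjusted p = 7.49e-04) and Irak3 at -0.76 (adjusted p = 0.00773), both lower. Naip1, a cytosolic receptor for bacterial secretion needles, has near-identical copies, so its reads may be split. In CONV mice Nlrp9b, a NOD-like receptor of the intestinal epithelium, was higher in Ern2-/- by 2.11 (SE 0.31, adjusted p = 6.10e-09), and Ffar2 was lower by -2.42 (adjusted p = 5.94e-16). There 2 of 100 pathway genes tested were called higher and 2 lower (4%), where 2.87% of all genes were called. In COLONIZED mice 1 of 103 was higher and 3 lower (3.88%), where 1.20% of all genes were called. Of 19 inflammasome genes 2 were higher and 0 lower in CONV mice, but 0 higher and 2 lower in COLONIZED mice. The sum of 8 colonocyte markers, in which Car1 weighed most, moved with the CONV contrast. It was 34269, 64849 and 282950 in CONV-WT, in order of size, and 297049 to 411902 in CONV-Ern2-/-. Of these 8 markers 5 were called higher in CONV-Ern2-/-, and 5 of 8 goblet markers and 1 of 6 stem markers were called lower. The part of these cell types in the differences of the pathway genes was not tested.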

How the data were processed

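The authors isolated distal colon crypts, made stranded mRNA libraries, sequenced them in 75 cycles and aligned reads with STAR to mm10, per the methods and the submitters' processing notes. Versions, the annotation and the strand setting are not given in the sources used here. The deposited table gives, for each gene symbol and library, the authors' raw read counts, neither normalized nor pooled. Columns of no sample came to 0. The members and lists were chosen with earlier results of these data known.

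In R 4.3.3, DESeq2 1.42.0 compared 9 pairs of groups by its Wald test, using only the 6 libraries concerned. As in the study's methods, genes were called at a p under 0.01 after Benjamini-Hochberg adjustment over all genes, beside 2 interaction tests and 3 additive fits. Printed levels are counts over DESeq2 size factors from all 18 libraries. Exon lengths are from GENCODE on GRCm38. All 10 members are named, and per list and comparison at most the 3 other pathway genes with the smallest adjusted p. Like genes are the 3 of highest r among those with a mean of 50 or more. Alternatives were edgeR 4.0.16 with its quasi-likelihood test, TMM size factors, a filter at 10 counts in 3 libraries, a replicate block, a sex covariate, a fit of 18 libraries and leaving out each library. DESeq2 and edgeR were tested on simulated counts. Litters and cages are not given per library, so p-values measure only the spread between these mice. Per the methods, GF mice lived in sterile isolators, colonized mice in sterile cages outside them and CONV mice in a specific pathogen-free facility. Microbial state and housing therefore cannot be told apart.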

Additional observations from a re-analysis of the deposited data

How the results depend on the processing

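The log2 fold changes followed for members numbered 35, with 389 alternative values: 339 kept direction and side of the threshold, 45 kept direction but missed it, 4 newly passed it and 1 reversed, that of Nod2 between COLONIZED-Ern2-/- and COLONIZED-WT, from -0.13 to 0.012 without COLONIZED-WT replicate 1 (range over left-out libraries -0.27 to 0.012). Nod2 rose in every alternative of its contrasts with GF. TMM size factors and the low-count filter moved no count of members called.

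edgeR called 0 members in CONV-WT, CONV-Ern2-/-, COLONIZED-WT and COLONIZED-Ern2-/- against GF and in CONV-Ern2-/- against COLONIZED-Ern2-/-, beside 1, 1, 4, 1 and 1 by DESeq2. With sex as a covariate 0 were called in COLONIZED-WT and CONV-Ern2-/- against GF and in CONV-Ern2-/- against COLONIZED-Ern2-/-, and 2 in CONV mice over both genotypes (Nod2 and Tlr3). In 1 fit of all 18 libraries COLONIZED-WT against GF gave 1, CONV-Ern2-/- against COLONIZED-Ern2-/- gave 0 and CONV-Ern2-/- against CONV-WT gave 1 (Nlrp6). The cause of these changes was not tested.

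Leaving out 1 library gave 1 to 3 members in COLONIZED-WT against GF, 0 to 2 in CONV-Ern2-/- against GF, and 0 to 1 in CONV-Ern2-/- against COLONIZED-Ern2-/- and against CONV-WT and in COLONIZED-Ern2-/- against COLONIZED-WT. Over both genotypes, leaving out COLONIZED-WT replicate 2, GF-Ern2-/- replicate 2 or CONV-WT replicate 3, chosen after seeing the data, gave 2 to 3 members for COLONIZED and 1 for CONV. In 27 pairs of same-numbered samples the correlation of deviations ran from -0.28 to 0.63, over 0.1 in 15, and in 0 of 9 comparisons was every pair over 0.1, so the numbers were not taken as pairing. With the replicate block 2 members were called in COLONIZED-WT against GF (Nod2 and Nlrp6), 0 in CONV-Ern2-/- against GF, 0 in CONV-Ern2-/- against COLONIZED-Ern2-/- and 2 in CONV mice over both genotypes (Nod2 and Tlr3). Depth limits Nod2 in GF, at 29 counts in the lowest library, and Tlr9 throughout.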
